A study of Arabidopsis thaliana with 12 samples.

Results

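The genes described here are 10 seed storage and oil body genes of Arabidopsis thaliana, chosen by name from the 33602 genes counted: the cruciferin genes CRA1, CRC and CRU2, the 2S albumin genes SESA1, SESA2, SESA3 and SESA4, the oleosin genes OLEO1 and OLEO2, and the peroxiredoxin gene PER1. They were picked with earlier results from the same 12 RNA-seq libraries known. Their own levels are therefore given as a description, and nothing is read from the calls on them. The libraries came from whole seedlings aged 1 week and fall into 4 groups of 3. These were the cdk8 mutant with 50 µM abscisic acid (ABA) for 3 h, the cdk8 mutant with mock treatment, wild type (WT) with the same ABA treatment and WT with mock treatment. The labels give no further allele or treatment, and name neither the cdk8 allele nor the number of lines or of seedlings per library. The file headers call the mock columns 0h, so the ABA comparisons also hold whatever 3 h of handling and time of day changed.

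Cruciferins (12S globulins) and 2S albumins are the main proteins that a maturing embryo packs into its storage vacuoles, and germination breaks them down to feed the seedling. Oleosins coat the oil bodies of the seed, and PER1 is a peroxiredoxin of the embryo and aleurone that is used as a marker of seed maturation. The genes are switched on late in seed development by the B3 factors ABI3, FUS3 and LEC2 and by bZIP factors acting with ABA, through promoter elements called RY and ABRE. After germination they are normally silenced, with VAL factors, Polycomb proteins and the remodeller PICKLE among the known repressors. CDK8 is the kinase of the Mediator complex, which links transcription factors to RNA polymerase II.

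The promoters are shown first. The 4 SESA genes, which lie side by side on chromosome 4, share a motif arrangement, and its part in the levels below was not tested. The 120 bases before the annotated start are printed for CRC and SESA1 to SESA4, and 250 bases for OLEO1 and CRA1. All come from the RefSeq TAIR10.1 genome, written 5′ to 3′ toward the gene. The positions are CRC chr4:14087436-14087555 (plus strand), SESA1 chr4:13607209-13607328 (plus strand), SESA2 chr4:13609221-13609340 (plus strand), SESA3 chr4:13611676-13611795 (plus strand), SESA4 chr4:13613476-13613595 (plus strand), OLEO1 chr4:12900180-12900429 (plus strand) and CRA1 chr5:17758337-17758586 (minus strand). Capitals mark the RY core CATGCA and the ABRE core ACGTG on either strand; overlapping matches run together, and CACGTG holds the ABRE core on both strands.
CRC: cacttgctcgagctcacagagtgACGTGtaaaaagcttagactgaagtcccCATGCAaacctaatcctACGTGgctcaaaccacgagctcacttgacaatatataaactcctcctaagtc
SESA1: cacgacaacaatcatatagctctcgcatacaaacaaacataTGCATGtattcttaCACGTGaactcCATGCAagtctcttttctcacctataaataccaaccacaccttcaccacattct
SESA2: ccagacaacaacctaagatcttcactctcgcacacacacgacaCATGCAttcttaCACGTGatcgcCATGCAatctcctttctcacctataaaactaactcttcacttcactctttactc
SESA3: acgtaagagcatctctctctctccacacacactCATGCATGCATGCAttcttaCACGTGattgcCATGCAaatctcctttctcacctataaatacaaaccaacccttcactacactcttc
SESA4: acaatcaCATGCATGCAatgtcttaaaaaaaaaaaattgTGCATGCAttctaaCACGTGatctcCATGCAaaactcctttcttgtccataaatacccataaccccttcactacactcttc
OLEO1: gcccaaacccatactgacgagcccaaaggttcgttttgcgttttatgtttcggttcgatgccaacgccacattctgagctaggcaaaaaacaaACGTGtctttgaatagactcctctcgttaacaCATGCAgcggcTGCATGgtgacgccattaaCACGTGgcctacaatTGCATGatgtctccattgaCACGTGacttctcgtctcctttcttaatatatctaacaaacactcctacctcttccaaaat
CRA1: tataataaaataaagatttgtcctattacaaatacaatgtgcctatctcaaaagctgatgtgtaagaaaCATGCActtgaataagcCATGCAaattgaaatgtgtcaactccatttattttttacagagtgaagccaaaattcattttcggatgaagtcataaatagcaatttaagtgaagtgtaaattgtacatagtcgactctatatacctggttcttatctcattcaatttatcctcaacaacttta

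RY core letters were found in 8 of the 10 promoters, over 250 bases, against 8.44% of 27431 promoters of the genome. ABRE core letters were found in 7 of 10, against 22.9%, and both together in 6 of 10, against 2.22%. In all 4 SESA promoters CACGTG is followed after 5 bases by CATGCA, an arrangement noticed first in these sequences and then counted, which 0.0328% of the 27431 promoters hold. CRA1 and OLEO2 have the RY core without the ABRE core, PER1 the ABRE core without the RY core, and CRU2 neither. None of the 10 windows overlaps another gene. For CRA1 and PER1 the RefSeq start and the start in the count table lie 48 and 73 bases apart. A match is a run of letters and was not tested as a binding site.

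**Figure D1:**
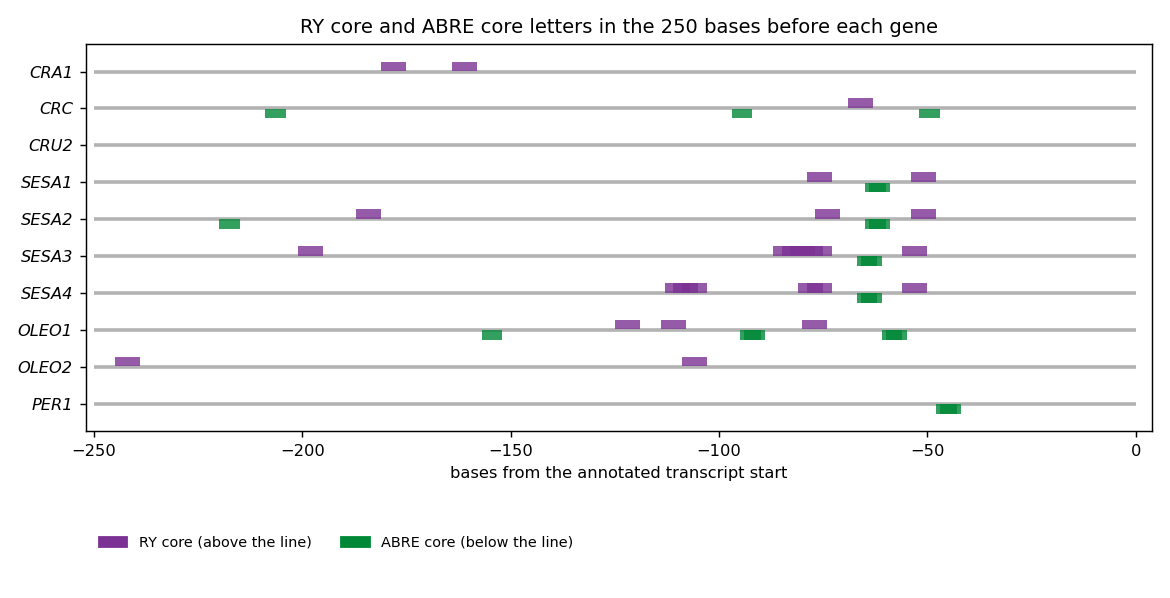
Positions of RY core and ABRE core letters on either strand in the 250 bases before each of the 10 genes, in bases from the annotated transcript start. SESA1 to SESA4 show RY, ABRE and RY in the same order within 90 bases of the start; CRU2 has no match.

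Between 17675785 and 27415053 fragments were assigned to genes per library, with at least 24292745 in the cdk8 ABA libraries and at most 21188494 in the others. CDK8 (AT5G63610) itself measured 10.6, 5.20 and 9.36 CPM in cdk8 ABA, 5.24, 9.32 and 6.01 CPM in cdk8 mock libraries, 29.2, 29.4 and 26.7 CPM in WT ABA, and 21.9, 19.7 and 20.3 CPM in WT mock, in replicate order; CPM is counts per 1000000 fragments of a library, after TMM scaling. It was thus lower in every cdk8 library than in any WT library, with reads still assigned to it. Leaf markers were strong in all groups: the small Rubisco subunit gene RBCS1A, Rubisco activase gene RCA and CAB2 together lay between 6553 and 25310 CPM, and 3 root markers together between 38.5 and 166 CPM. The root markers summed to 44.0 ± 7.14 CPM in cdk8 ABA, 138 ± 24.3 CPM in cdk8 mock libraries, 68.5 ± 10.4 CPM in WT ABA and 143 ± 17.4 CPM in WT mock (SD, n = 3), and 3 of the 3 were called lower in cdk8 than in WT under ABA, RHD2 with a call lost under 10 alternatives. Over all genes tested, 13% were called lower in that comparison. The 3 markers did not move together with ABA. On the log2 scale PRP3 and LRX1 changed by −3.47 and −2.57 in cdk8, and by −2.23 and −1.58 in WT. RHD2 rose with ABA, by 0.68 in cdk8 and by 0.72 in WT. The part of root RNA in the differences between groups was not tested. Replicate 2 of cdk8 ABA and replicate 3 of WT ABA stood apart from their groups over all genes. The chi-square per degree of freedom of the pairs they belong to lay between 24.6 and 30.7, and that of every other pair within a group between 6.26 and 11.4. All pairs differed by far more than counting noise, so no library was counted as a repeat. Deviations in log2 CPM from the group mean were also correlated between libraries of different groups. The highest correlation, 0.348, was that of replicate 2 of cdk8 ABA with replicate 3 of WT ABA, and its reason was not tested. In the sample titles, replicate 3 of cdk8 ABA carries a library number outside the consecutive run of all the other libraries. The labels do not say why, and any effect on its levels was not tested. The labels do not say whether the 3 libraries of a group are separate plants or cultures, so p-values measure the spread between these libraries only. RNA was taken from whole seedlings, so more RNA per cell and more cells that carry a transcript cannot be told apart.

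The 10 genes were rare transcripts in every library, and most of their fragments came from a pair of cdk8 ABA libraries. In cdk8 ABA the summed counts were 2090, 154 and 1023, in cdk8 mock 77, 259 and 116, in WT ABA 2, 64 and 9, and in WT mock 34, 17 and 252. Per 1000000 assigned fragments these were 76.2, 5.73 and 42.1 in cdk8 ABA, 4.07, 14.2 and 5.59 in cdk8 mock, 0.108, 3.62 and 0.466 in WT ABA, and 1.66, 0.802 and 13.4 in WT mock. Replicates 1 and 3 of cdk8 ABA together held 76.0% of the 4097 counts. Replicate 2 of cdk8 ABA lay below replicate 2 of cdk8 mock and replicate 3 of WT mock, so the summed level of cdk8 ABA overlapped both mock groups but no WT ABA library.

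The group means were 41.4 ± 35.3 per 1000000 in cdk8 ABA, 7.96 ± 5.47 in cdk8 mock, 1.4 ± 1.93 in WT ABA and 5.30 ± 7.06 in WT mock (SD, n = 3 each). The spread within groups was wide, with the SD above the mean in both WT groups. From pooled counts the summed level was 5.21 times as high in cdk8 ABA as in cdk8 mock, and between 2.88 and 8.44 times with each library left out. In WT the ratio of ABA to mock was 0.283, and it came to 1.16 without WT mock replicate 3. Under ABA the summed level was 28.6 times as high in cdk8 as in WT, between 15.8 and 133 times with each library left out. The highest of these values was without WT ABA replicate 2. After mock the ratio of cdk8 to WT was 1.55, between 0.960 without cdk8 mock replicate 2 and 6.35 without WT mock replicate 3. Within both cdk8 groups the libraries fell in the same order by the summed level and by CDK8 itself: replicates 1, 3 and 2 of cdk8 ABA, and replicates 2, 3 and 1 of cdk8 mock, from high to low. In both WT groups the orders differed. From high to low, CDK8 ran in replicates 2, 1 and 3 of WT ABA, and 1, 3 and 2 of WT mock. The summed level ran in replicates 2, 3 and 1 of WT ABA, and 3, 1 and 2 of WT mock. The part of CDK8 itself in the summed level was not tested.

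**Figure D2:**
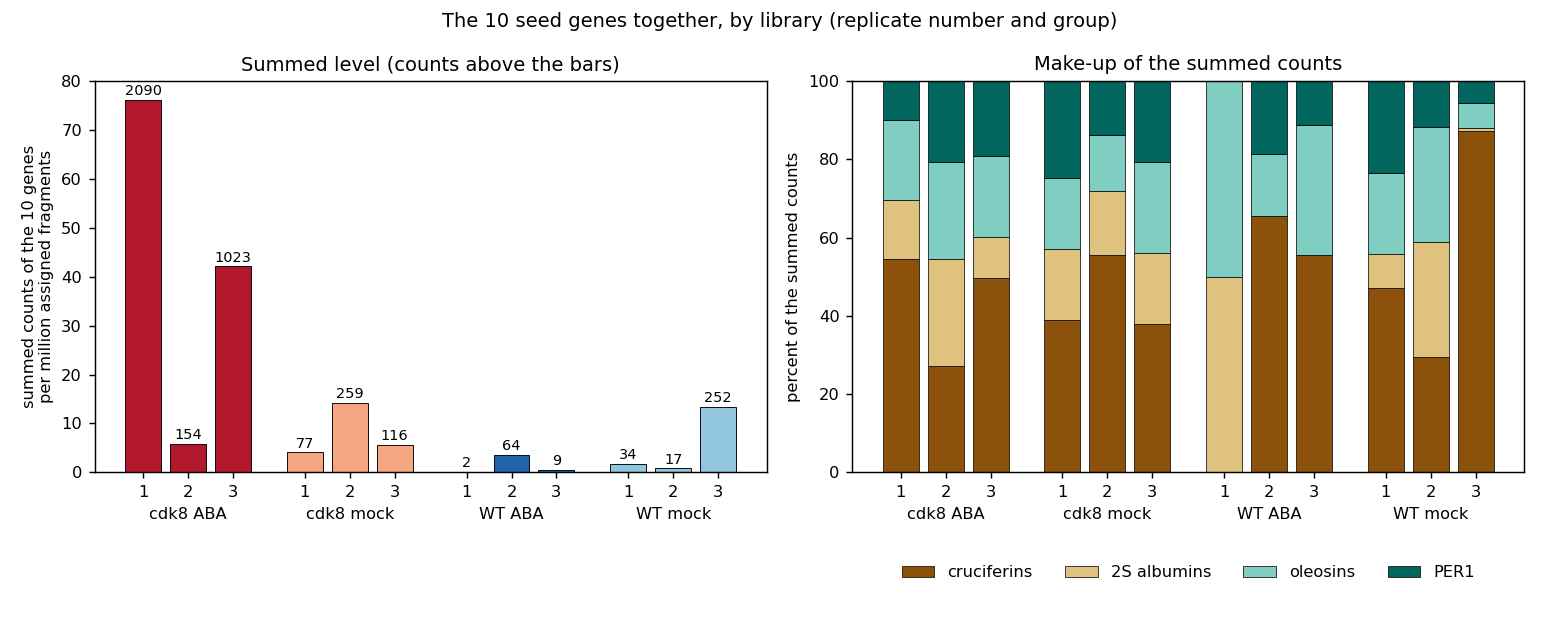
Left, summed counts of the 10 genes per 1000000 assigned fragments in each library, with the counts above the bars; right, the share of those counts held by the cruciferin genes, the 2S albumin genes, the oleosin genes and PER1. Replicates 1 and 3 of cdk8 ABA stand at 76.2 and 42.1, above all other libraries, and cruciferins held 87.3% of the 252 counts of WT mock replicate 3.

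The spread between libraries was not one common factor for all 10 genes. Cruciferins held 51.7% of the summed counts in cdk8 ABA, 48.2% in cdk8 mock, 62.7% in WT ABA and 79.5% in WT mock. The 2S albumins held 14.1% in cdk8 ABA (exact 95% interval 12.9% to 15.3%), 17% in cdk8 mock (13.7% to 20.8%), 1.33% in WT ABA (0.0337% to 7.21%) and 3.30% in WT mock (1.59% to 5.99%). The intervals cover counting error only, and those of cdk8 and WT do not overlap. By library the share was 10.5% to 27.3% in cdk8 ABA and 16.2% to 18.2% in cdk8 mock, and in WT mock 8.82%, 29.4% and 0.794%, so libraries of the genotypes overlapped. WT mock replicate 3 was the only WT library with over 100 counts, and 73.8% of its 252 counts were CRA1 and 2 counts were 2S albumins. In cdk8 mock replicate 2, with 259 counts in all, CRA1 held 39.0% and the 2S albumins had 42 counts.

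Over the 12 libraries, Pearson's r of log2 CPM between members ranged from 0.463 to 0.966, with a median of 0.864 over 45 pairs. These points share libraries, depth and the same few high libraries, so the values are descriptions. SESA4 had the lowest median r with the other members, 0.622, followed by CRA1 with 0.710.

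CRA1 (AT5G44120, chromosome 5, 17756264 to 17758288, minus strand, TAIR10) encodes a 12S globulin and was the most abundant of the 10 by counts. It measured 23.1, 0.537 and 15.5 CPM in cdk8 ABA, 0.847, 5.60 and 1.35 CPM in cdk8 mock libraries, 0, 2.07 and 0.106 CPM in WT ABA, and 0.528, 0.143 and 9.82 CPM in WT mock. High libraries occurred in 3 of the 4 groups, and the groups overlapped in each comparison. CRA1 was the 1 gene of the 10 for which the lowest cdk8 ABA library, replicate 2, lay below a WT ABA library. Its pooled level in cdk8 mock was 0.760 times that in WT mock, between 0.339 and 7.48 with each library left out.

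CRC (AT4G28520, named CRU3 by RefSeq; chromosome 4, 14087556 to 14089796, plus strand) encodes another 12S globulin. It measured 16.4, 0.860 and 4.34 CPM in cdk8 ABA, 0.582, 2.05 and 0.652 CPM in cdk8 mock libraries, 0, 0.414 and 0.159 CPM in WT ABA, and 0.240, 0.0951 and 1.79 CPM in WT mock. All cdk8 ABA libraries lay above all WT ABA libraries, and the pooled ratio was 39.0, between 13.3 and 88.6 with each library left out. CRU2 (AT1G03880, chromosome 1, 985751 to 988146, plus strand), the third globulin gene here, was the rarest, with 53 counts over 12 libraries. CRU2 had 28, 3 and 12 counts in cdk8 ABA, 3, 6 and 1 in cdk8 mock, and 0 in all WT libraries. Its pooled CPM was at least 9.40-fold higher in cdk8 than in WT under ABA and at least 3.47-fold higher after mock, against a floor of 3 counts over the WT group. The 3 cruciferin genes share 66.9% to 76.1% of aligned exon bases, and the longest identical run between any pair is 26 bases.

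The 4 SESA genes encode the small 2S albumins, and their transcripts were close to the detection floor in WT. Over the 4 genes there were 538 counts in the 6 cdk8 libraries and 11 in the 6 WT libraries. By library the 4 genes together had 312, 42 and 107 counts in cdk8 ABA, 14, 42 and 21 in cdk8 mock, 1, 0 and 0 in WT ABA, and 3, 5 and 2 in WT mock. Every cdk8 library therefore lay above every WT library in counts for these genes together.

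SESA1 (AT4G27140, chromosome 4, 13607329 to 13608031, plus strand) had 118, 9 and 32 counts in cdk8 ABA, 0, 7 and 0 in cdk8 mock, 1, 0 and 0 in WT ABA, and 1, 0 and 0 in WT mock. It was the 2S albumin gene with the greatest difference between ABA and mock in cdk8, a pooled ratio of 16.4. With each library left out in turn, the ratio lay between 6.47 and 26.4. Its ratio of cdk8 to WT under ABA was 104, with an exact 95% interval of 18.4 to 4143 because WT ABA had a single count.

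SESA2 (AT4G27150, chromosome 4, 13609341 to 13610075, plus strand) had 144, 13 and 25 counts in cdk8 ABA, 5, 10 and 7 in cdk8 mock, 0 in WT ABA, and 1, 0 and 0 in WT mock. SESA3 (AT4G27160, chromosome 4, 13611796 to 13612563, plus strand) had 45, 7 and 33 counts in cdk8 ABA, 4, 8 and 7 in cdk8 mock, and 0 in all WT libraries. For both genes each cdk8 library lay above each WT library, in both treatments. Under ABA the pooled CPM of SESA2 was at least 39.8-fold and that of SESA3 at least 18.6-fold higher in cdk8 than in WT.

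SESA4 (AT4G27170, chromosome 4, 13613596 to 13614283, plus strand) behaved unlike its neighbours. Over 250 bases its promoter has 6 RY core matches, against 2, 3 and 7 for SESA1, SESA2 and SESA3. The part of the promoters in these levels was not tested. SESA4 had 5, 13 and 17 counts in cdk8 ABA, 5, 17 and 7 in cdk8 mock, 0 in WT ABA, and 1, 5 and 2 in WT mock. Its ABA to mock ratio in cdk8 was 0.870, between 0.646 and 1.45 with each library left out, and it was lowest in the cdk8 ABA library with the most 2S albumin counts. There SESA4 held 1.60% of the 312 2S albumin counts (exact 95% interval 0.522% to 3.70%), against 31.0% in cdk8 ABA replicate 2, 15.9% in replicate 3, and 35.7%, 40.5% and 33.3% in the cdk8 mock libraries. In WT, SESA4 was the 1 gene of the 10 with all 3 ABA libraries below all 3 mock libraries. Among the 21730 genes with at least 50 counts, 34.4% showed this, so nothing is read from it.

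Because fragments of near-identical copies can be split or lost in counting, the SESA genes were compared base by base. Their exons are 82.6% to 90.2% identical in pairs, with a longest shared run of 49 bases between SESA2 and SESA3. At 32 bases, 1.98% to 8.28% of the SESA exon windows occur elsewhere in the genome, and at 64 bases none do. The read length is not given in the sources used here, so the size of any loss is not known.

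OLEO1 (AT4G25140, chromosome 4, 12900430 to 12901577, plus strand) and OLEO2 (AT5G40420, chromosome 5, 16173393 to 16174783, minus strand) encode the main oleosins of the seed oil body. OLEO2 measured 11.8, 0.824 and 6.46 CPM in cdk8 ABA, 0.582, 1.39 and 0.746 CPM in cdk8 mock libraries, 0.0579, 0.296 and 0.106 CPM in WT ABA, and 0.240, 0.0475 and 0.581 CPM in WT mock. OLEO2 was the 1 gene of the 10 detected in every library. Its cdk8 libraries lay above the WT libraries of the same treatment, after mock by a small margin, 0.582 against 0.581 CPM.

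OLEO1 measured 3.52, 0.537 and 2.09 CPM in cdk8 ABA, 0.159, 0.665 and 0.513 CPM in cdk8 mock libraries, 0, 0.296 and 0.0529 CPM in WT ABA, and 0.0961, 0.190 and 0.264 CPM in WT mock. Groups overlapped after mock but not under ABA. Pooled ratios of cdk8 to WT under ABA were 18.1 for OLEO1 and 42.2 for OLEO2. OLEO1 overlaps the gene AT4G25150 on the other strand by 44 exonic bases, and strand was not used in counting. AT4G25150 had 45 to 60 counts in cdk8 ABA and 28 to 42 counts in WT ABA, so it did not follow the spread of OLEO1.

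PER1 (AT1G48130, chromosome 1, 17780502 to 17781727, plus strand) measured 7.39, 1.15 and 7.87 CPM in cdk8 ABA, 1.0, 2.0 and 1.12 CPM in cdk8 mock libraries, 0, 0.710 and 0.0529 CPM in WT ABA, and 0.384, 0.0951 and 0.739 CPM in WT mock. Its cdk8 libraries lay above the WT libraries of the same treatment. It was the member with the most equal levels in the high pair of cdk8 ABA libraries. The pooled ratio of cdk8 to WT was 22.0 under ABA and 3.43 after mock, between 2.45 and 5.66 after mock with each library left out.

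**Figure D3:**
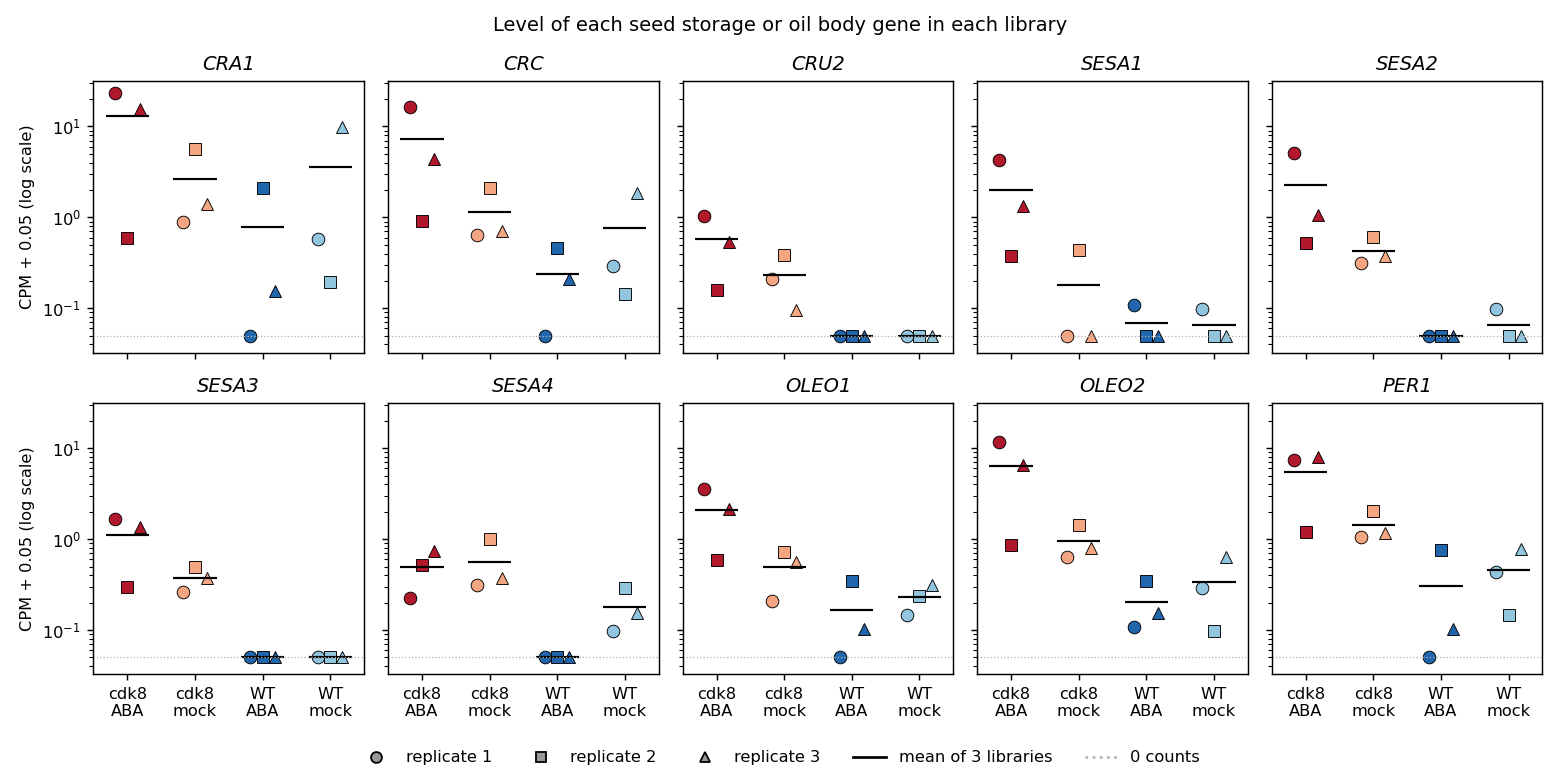
CPM plus 0.05 on a log scale for each of the 10 genes in each library, with replicate symbols and the mean of 3 libraries as a bar; the dotted line marks 0 counts. In each panel except SESA4 and PER1 the highest point is replicate 1 of cdk8 ABA, and CRU2 and SESA3 lie at 0 in all WT libraries.

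Per kilobase of exon, mean levels in cdk8 ABA ran in the order CRA1 (7.28 CPM per kilobase), OLEO2 (7.28), PER1 (5.55), CRC (4.01), SESA2 (2.99), SESA1 (2.75), OLEO1 (2.25), SESA3 (1.38), SESA4 (0.642) and CRU2 (0.323). With SDs of 6.40 for CRA1, 6.27 for OLEO2, 3.80 for PER1 and 3.46 for SESA2, neighbours in this order did not differ beyond their spread.

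Counted by library, 9 of the 10 genes had all cdk8 ABA libraries above all WT ABA libraries, the exception being CRA1; among the 21730 genes with at least 50 counts 16.9% did so. After mock, 6 of 10 had all cdk8 above all WT libraries (CRU2, SESA2, SESA3, SESA4, OLEO2 and PER1), where 18.2% of those genes did. In neither treatment did any of the 10 have all cdk8 below all WT libraries (18.3% of genes under ABA and 19.5% after mock). None of the 10 had all ABA libraries above all mock libraries in cdk8 (33.7% of genes, and 32.9% all lower) or in WT (33% of genes). These counts describe a choice made with the levels known and support nothing further.

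In the fit over all genes, 21151 genes passed the filter on low counts, and 6 of the 10 were among them: CRA1, CRC, SESA2, OLEO1, OLEO2 and PER1. CRU2, SESA1, SESA3 and SESA4 did not pass. The filter asks for a minimum level in a few libraries only, so a gene could pass through its cdk8 libraries alone. SESA2 did so, with 0 counts in WT ABA and 1 in WT mock. At an adjusted p under 0.05 with the quasi-likelihood test of edgeR, 6 of the 6 were called higher in cdk8 than in WT under ABA, where 10.6% of genes tested were called higher and 23.6% in either direction. The CRA1 call rested on an adjusted p of 0.04995 (edgeR), and its cdk8 ABA and WT ABA libraries overlapped. With ABA in cdk8, 5 of 6 were called higher, all but CRA1, against 30.6% of genes higher and 61% in either direction. None was called with ABA in WT (64.7% of genes called in either direction), between genotypes after mock (13.1%), or for the difference between the ABA responses (5.21%, of which 2.37% higher and 2.85% lower). The genes were chosen with these levels known, so nothing is read from these counts.

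Taken one at a time, the cdk8 ABA libraries differed. Against pooled cdk8 mock, the summed level of cdk8 ABA replicate 1 was 9.59 times as high and that of replicate 3 was 5.31 times as high, while replicate 2 stood at 0.713. Replicate 2 taken alone was below the pooled cdk8 mock level for 7 of the 10 genes, with ratios from 0.215 for CRA1 to 0.938 for SESA4. The exceptions were SESA1 (2.69), SESA2 (1.24) and OLEO1 (1.21). Against pooled WT ABA, replicate 2 alone had a summed ratio of 3.91. CRA1 was below 1 there, at 0.771, and CRU2 with 3 counts against 0 allowed no ratio.

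**Figure D4:**
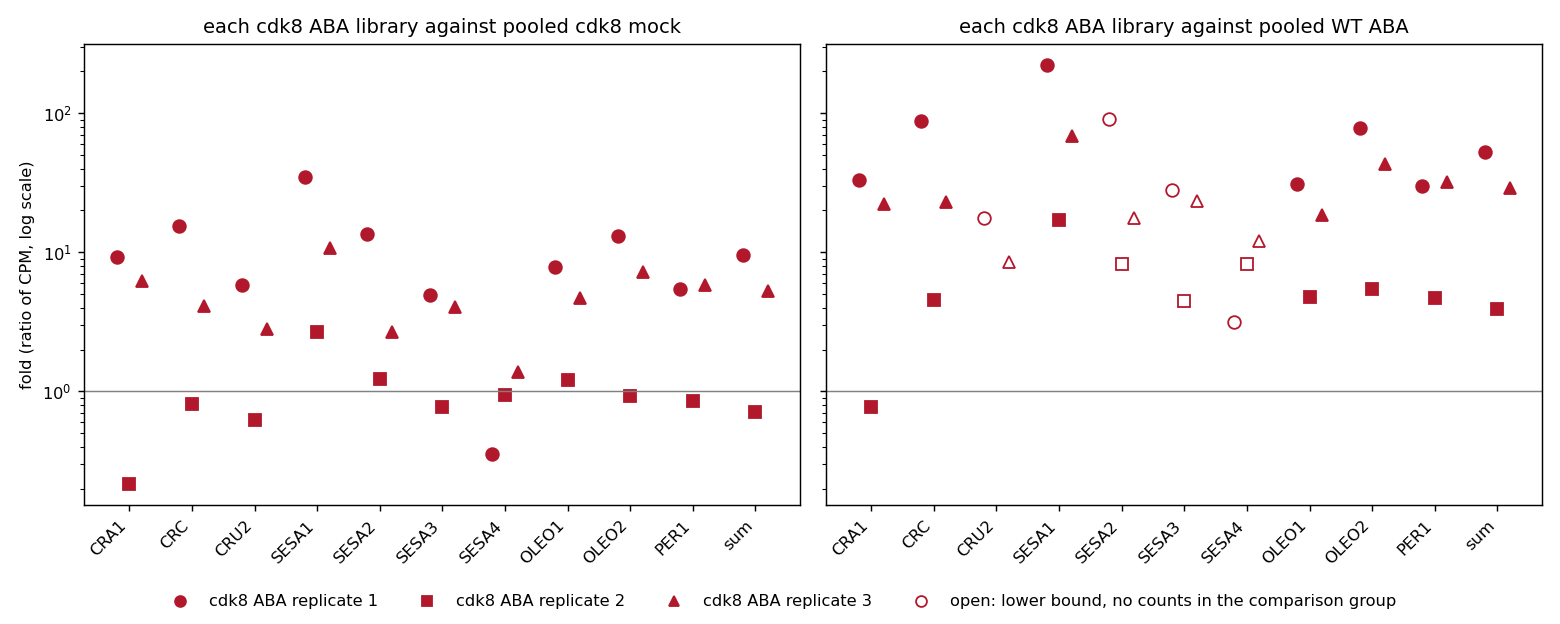
Ratio of CPM on a log scale of each cdk8 ABA library to pooled cdk8 mock (left) and to pooled WT ABA (right), for each gene and the sum; open symbols are lower bounds, with the empty WT group set at 3 counts, and SESA1 in the right panel rests on 1 count in WT ABA. Replicate 2 lies near or below 1 for most genes on the left, with a summed ratio of 0.713, and above 1 for every gene drawn except CRA1 on the right.

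Genes outside the 10 were compared in 8 further lists chosen for the seed programme, with 78 genes, of which 55 passed the filter. The lists were drawn up with earlier results known. With ABA, 32 of the 55 were called higher and 6 lower in cdk8, and 31 higher and 6 lower in WT, beside 30.6% and 30.4% of all genes in cdk8 and 31.9% and 32.8% in WT. Under ABA 15 were called higher and 6 lower in cdk8 than in WT, and after mock 6 and 2, beside 10.6% and 13% of all genes under ABA and 5.15% and 8% after mock. Their median log2 fold change was 0.05 under ABA and 0.22 after mock, beside 0.0048 and 0.0019 over all genes tested.

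Seed LEA genes, which encode the desiccation protectants made alongside storage proteins, were induced strongly in both genotypes. They rose with ABA for 8 of 9 tested members in cdk8 and for 8 of 9 in WT, beside 30.6% and 31.9% of all genes tested. Summed over the 11 listed genes they measured 796 ± 88.3 CPM in cdk8 ABA, 10.7 ± 1.74 CPM in cdk8 mock libraries, 720 ± 84.0 CPM in WT ABA and 6.38 ± 1.44 CPM in WT mock. LEA76 (AT3G15670) had 3700, 5365 and 2669 counts in cdk8 ABA, so replicate 2, the low library for storage genes, was the high library for this gene. The tested seed LEA genes did not share this order. By CPM, replicate 2 was also the highest cdk8 ABA library for ECP63 and the LEA4 group gene AT3G17520. It was instead the lowest for EM1, EM6, M17, XERO1 and LEA D34 (AT3G53040), and lay between the others for SMP1 (AT3G12960). LEA76 rose by 6.98 ± 0.28 on the log2 scale in cdk8 (adjusted p = 1.28e-10, edgeR) and by 6.91 ± 0.29 in WT (adjusted p = 1.34e-10, edgeR), over 3 libraries a group.

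Between genotypes under ABA, 4 of 9 seed LEA genes were called higher in cdk8 and none lower, beside 10.6% and 13% of all genes tested. The EM1 gene (AT3G51810), for an early methionine-labelled LEA protein, measured 12.8 ± 2.31 CPM in cdk8 ABA, 0.213 ± 0.162 CPM in cdk8 mock libraries, 4.97 ± 2.06 CPM in WT ABA and 0.0336 ± 0.0292 CPM in WT mock (n = 3). It was higher in cdk8 under ABA by 1.37 ± 0.28 (log2 fold change, adjusted p = 0.00338, edgeR). ECP63 (AT2G36640) was higher by 0.74 ± 0.16 (adjusted p = 0.00533, edgeR) and XERO1 (AT3G50980), a dehydrin gene, by 0.91 ± 0.17 (adjusted p = 0.00231, edgeR). M17 (AT2G41260) was called as well (2.89 ± 0.92, adjusted p = 0.036, edgeR) with 107, 8 and 15 counts in cdk8 ABA and 3, 4 and 4 in WT ABA. The M17 call was lost without cdk8 ABA replicate 1 or any of the WT ABA libraries. EM6 (AT2G40170), the close relative of EM1, was not called between genotypes (−0.13 ± 0.21, adjusted p = 0.691, edgeR).

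Of 6 other storage protein genes, 3 passed the filter. The vicilin-like cupin gene AT2G28490 had 194, 20 and 190 counts in cdk8 ABA, 7, 21 and 21 in cdk8 mock, 0, 6 and 1 in WT ABA, and 7, 4 and 12 in WT mock. It was higher in cdk8 than in WT under ABA (5.20 ± 0.96, adjusted p = 0.00187, edgeR) and higher with ABA in cdk8 (2.59 ± 0.71, adjusted p = 0.00562, edgeR). Its low cdk8 ABA library was again replicate 2. SESA5 (AT5G54740), another 2S albumin gene, had 75, 3 and 13 counts in cdk8 ABA, 2, 1 and 2 in cdk8 mock, 0 in WT ABA, and 0, 0 and 1 in WT mock, and did not pass the filter. PAP85 (AT3G22640), a vicilin gene, likewise did not pass, with 88, 5 and 6 counts in cdk8 ABA and 2, 1 and 0 in WT ABA.

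The vicilin-like genes AT2G18540 and AT4G36700 instead rose with ABA in both genotypes. AT2G18540 rose by 3.56 ± 0.44 in cdk8 and by 3.54 ± 0.53 in WT (adjusted p = 7.54e-06 and 4e-05, edgeR). AT4G36700 rose with ABA by 1.26 ± 0.44 in cdk8 and by 2.41 ± 0.86 in WT (adjusted p = 0.0227 and 0.0243, edgeR). The cdk8 call was lost without cdk8 mock replicate 2 or cdk8 ABA replicate 1, and the WT call without WT mock replicate 1 or 2 or WT ABA replicate 2 or 3. The gene was higher in cdk8 than in WT under ABA (2.40 ± 0.50, adjusted p = 0.00408, edgeR) and after mock (3.55 ± 0.75, adjusted p = 0.00702, edgeR). Its counts were 70, 42 and 50 in cdk8 ABA, 22, 7 and 20 in cdk8 mock, 2, 8 and 10 in WT ABA, and 0, 1 and 3 in WT mock, so no cdk8 library overlapped a WT library of the same treatment.

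Among 12 other oil body genes 5 passed the filter. The lipid-body oleosin gene AT2G25890 measured 2.89 ± 1.81 CPM in cdk8 ABA, 0.707 ± 0.160 CPM in cdk8 mock libraries, 0.673 ± 0.411 CPM in WT ABA and 0.371 ± 0.270 CPM in WT mock (SD, n = 3). It was higher in cdk8 than in WT under ABA (2.10 ± 0.55, adjusted p = 0.014, edgeR), a call lost without cdk8 ABA replicate 3. OLEO5 (AT3G01570) rose with ABA in cdk8 by 2.38 ± 0.44 and in WT by 1.84 ± 0.51 (adjusted p = 0.000338 and 0.00573, edgeR). OLEO4 (AT3G27660) was not called in any of the 5 comparisons. The seed caleosin gene CLO1 (AT4G26740) had 12, 0 and 6 counts in cdk8 ABA and 0, 0 and 1 in WT ABA.

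RD20 (AT2G33380) and CLO4 (AT1G70670) encode caleosins found outside the seed, and these 2 genes had the called differences between ABA responses among the 55. Over all genes tested 5.21% were called for it, so nothing is read from the number. RD20 measured 209 ± 21.4 CPM in cdk8 ABA, 18.3 ± 3.25 CPM in cdk8 mock libraries, 458 ± 140 CPM in WT ABA and 11.9 ± 4.32 CPM in WT mock, and its response was smaller in cdk8 (−1.76 ± 0.35, adjusted p = 0.012, edgeR). CLO4 measured 29.4 ± 1.90 CPM in cdk8 ABA, 19.2 ± 2.26 CPM in cdk8 mock libraries, 20.5 ± 0.762 CPM in WT ABA and 21.8 ± 1.33 CPM in WT mock, and its response was larger in cdk8 (0.71 ± 0.14, adjusted p = 0.0132, edgeR). Under ABA RD20 was lower in cdk8 than in WT by 1.13 ± 0.23 on the log2 scale, where the oleosin gene AT2G25890 was called higher. OLEO4 and OLEO5 were not called in that comparison.

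**Figure D5:**
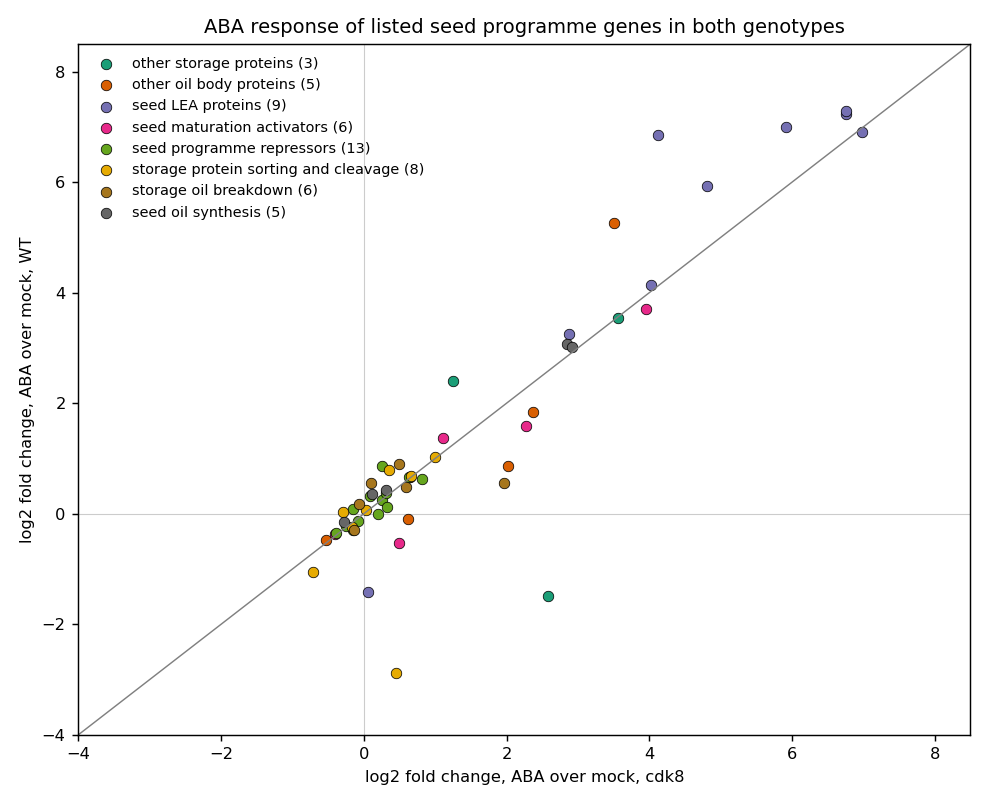
Log2 fold change of ABA over mock in cdk8 (x) and in WT (y) for the 55 tested genes of the 8 lists, coloured by list; the diagonal marks equal responses. Some seed LEA genes reach beyond 6 on both axes, RD20 lies above the diagonal at 3.51 and 5.27, and the vicilin-like AT2G28490 lies below it at 2.59 and −1.48.

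Of 15 listed activators of seed maturation 6 passed the filter: ABI5, EEL, bZIP10, bZIP25, WRI1 and DOG1. ABI3 (AT3G24650) had 9, 4 and 3 counts in cdk8 ABA, 5, 5 and 5 in cdk8 mock, 0 in WT ABA, and 1, 0 and 1 in WT mock. All 6 cdk8 libraries lay above all 6 WT libraries, 31 counts in all against 2, but ABI3 did not pass the filter and was not tested. FUS3 had up to 5 counts in a library, LEC1 up to 1 and ABI4 up to 4. LEC2 had 0, 1 and 0 counts in cdk8 ABA, 1, 6 and 5 in cdk8 mock, 1, 2 and 1 in WT ABA, and 2, 7 and 1 in WT mock. L1L (AT5G47670) had 1, 0 and 3 counts in cdk8 ABA, 1, 1 and 1 in cdk8 mock, 6, 6 and 1 in WT ABA, and 4, 1 and 4 in WT mock. It overlaps a gene on the other strand by 38 bases. LEC2 and L1L thus did not share the pattern of ABI3, and neither was tested. ABI5 (AT2G36270), the ABA-responsive bZIP factor, rose by 3.95 ± 0.20 in cdk8 and by 3.71 ± 0.19 in WT (adjusted p = 9.52e-10 and 8.65e-10, edgeR), and was not called between genotypes under ABA (−0.25 ± 0.15, adjusted p = 0.249, edgeR). WRI1 (AT3G54320), an activator of oil synthesis, rose with ABA by 0.64 ± 0.12 in cdk8 and by 0.66 ± 0.12 in WT (adjusted p = 0.000253 and 0.000207, edgeR) and was not called between genotypes. EEL (AT2G41070), a bZIP that competes with ABI5 at the EM1 promoter, fell below WT in cdk8 mock libraries (−0.84 ± 0.20, adjusted p = 0.0144, edgeR) and bZIP25 (AT3G54620) was lower in cdk8 under ABA (−0.40 ± 0.08, adjusted p = 0.00249, edgeR).

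None of the 13 tested repressors of the seed programme was called lower in cdk8, and 5 were called higher under ABA and 2 after mock. The called changes were small. Over all genes tested, 10.6% were called higher and 13% lower under ABA, and 5.15% and 8% after mock. With 13 genes and these shares, nothing is read from the lack of lower calls. VAL1 (AT2G30470), a B3 repressor that binds RY elements, was higher in cdk8 after mock by 0.55 ± 0.10 (adjusted p = 0.00357, edgeR) and under ABA by 0.32 ± 0.10 (adjusted p = 0.0377, edgeR). PKL (AT2G25170), the gene of PICKLE, was higher under ABA by 0.39 ± 0.10 (adjusted p = 0.0152, edgeR), and FIE (AT3G20740), a Polycomb gene, by 0.41 ± 0.09 (adjusted p = 0.00781, edgeR). FIE overlaps a gene on the other strand by 316 bases, so its counts are uncertain. The other 2 called under ABA were EMF2 (AT5G51230), a Polycomb gene, at 0.29 ± 0.09 (adjusted p = 0.0319, edgeR), and the histone deacetylase gene HDA19 (AT4G38130) at 0.24 ± 0.08 (adjusted p = 0.035, edgeR). The VAL1 call under ABA was lost under 7 alternatives, the PKL call under 2, the EMF2 call under 6 and the HDA19 call under 7. Of the 5 repressors called higher under ABA, 1 was called without WT ABA replicate 2 and 1 without cdk8 ABA replicate 3, in both cases FIE, and 2 without WT ABA replicate 3 or cdk8 ABA replicate 1.

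Of 8 sorting and cleavage genes, 1 was called higher and 2 lower in cdk8 under ABA, beside 10.6% and 13% of all genes tested. The gene deltaVPE (AT3G20210) was higher (4.22 ± 1.06, adjusted p = 0.0119, edgeR), with 23, 14 and 135 counts in cdk8 ABA and 1, 5 and 0 in WT ABA. This gene for a seed coat protease overlaps a highly counted gene on the other strand, so its counts are uncertain. The vacuolar protease genes alphaVPE (AT2G25940) and gammaVPE (AT4G32940) were lower, at −0.57 ± 0.17 and −0.47 ± 0.14 (adjusted p = 0.026 and 0.0309, edgeR). Their calls were lost under 3 and 5 alternatives, for both genes without cdk8 ABA replicate 1 or WT ABA replicate 1. Of these, gammaVPE was also lower in cdk8 after mock (−0.55 ± 0.14, adjusted p = 0.0221, edgeR), again lost under 5 alternatives. Both overlap a gene on the other strand, by 24 and 20 bases. The isocitrate lyase gene ICL (AT3G21720), of the glyoxylate cycle that turns seed oil to sugar, had 379, 127 and 104 counts in cdk8 ABA, 30, 48 and 32 in cdk8 mock, 30, 35 and 32 in WT ABA, and 26, 21 and 28 in WT mock. It was higher in cdk8 under ABA (2.02 ± 0.41, adjusted p = 0.00344, edgeR) and with ABA in cdk8 (1.96 ± 0.40, adjusted p = 0.000762, edgeR). The malate synthase gene MLS (AT5G03860), of the same cycle, was not called in any comparison. In seed oil synthesis DGAT1 (AT2G19450) rose with ABA by 2.85 ± 0.13 in cdk8 and by 3.08 ± 0.13 in WT, and was lower in cdk8 under ABA by 0.51 ± 0.12 on the log2 scale (adjusted p = 0.0074, edgeR).

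Markers of the seed coat were followed because a seedling sample can carry empty coats. Of 4 such genes 1, TT10, passed the filter. The 4 together lay between 1.35 and 2.17 CPM in cdk8 ABA, 0.222 and 0.699 CPM in cdk8 mock libraries, 0.582 and 1.42 CPM in WT ABA, and 0.190 and 0.721 CPM in WT mock. TT10 (AT5G48100), a laccase of the seed coat, had 30, 54 and 45 counts in cdk8 ABA and 11, 14 and 5 in WT ABA, and was higher in cdk8 (1.48 ± 0.47, adjusted p = 0.0352, edgeR), a call lost under 5 alternatives. TT12 (AT3G59030), a transporter of the seed coat, had 7, 3 and 5 counts in cdk8 ABA, 0 in cdk8 mock, 6, 8 and 3 in WT ABA, and 0 in WT mock. It did not pass the filter, its mean CPM was 0.186 in cdk8 ABA against 0.326 in WT ABA, and it overlaps a gene on the other strand by 92 bases. BAN was at 0 in 8 libraries and TT2 in 9. TT10 was highest in replicate 2 of cdk8 ABA, the library of that group lowest for the 10 genes. TT12 and deltaVPE were instead lowest of the group in that replicate, and BAN had 0, 0 and 4 counts in cdk8 ABA. The part of seed coat RNA in the levels of the 10 genes was not tested.

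The genes most like the 10 over the 12 libraries were ranked by Pearson's r of log2 CPM with their summed level, among 22238 genes with at least 30 counts. The likeness is over 12 libraries that share the same high samples, and it is a description. The closest were the lectin-family gene AT3G21380 (r = 0.967), BGLU19 (AT3G21370, r = 0.962), a beta-glucosidase gene beside it, and the cupin gene AT2G28490 (r = 0.952). AT3G21380 had 184, 29 and 143 counts in cdk8 ABA, 7, 44 and 22 in cdk8 mock, 1, 7 and 3 in WT ABA, and 10, 4 and 25 in WT mock. It was highest in the same library of each group as the 10 genes summed. BGLU19 overlaps a gene on the other strand by 446 bases, so its counts are uncertain.

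TIP3;1 (AT1G73190, r = 0.904), the seed-specific aquaporin of the storage vacuole membrane, had 131, 21 and 135 counts in cdk8 ABA, 16, 13 and 16 in cdk8 mock, 1, 9 and 2 in WT ABA, and 3, 0 and 8 in WT mock. The other 6 of the first 10 were AT5G23330, GalAK, AT5G53700, AT1G50590, FPS1 and AT5G48990. Their levels differed by less than 5-fold between the highest and lowest library, so they did not share the range of the 10 genes. The order of the libraries was shared only in part, with Spearman's rho from 0.790 for AT5G53700 to 0.937 for GalAK. Ranked by Spearman's rho, 5 of the 10 nearest genes were the same.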

How the data were processed

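The deposited table holds counts of fragments per gene, made per the file headers by featureCounts v1.4.6 (paired ends, exons summed by gene), with no strand or multi-mapping option given; the submitters' processing notes name FastQC, TopHat2 and TAIR10. The sources used here give no library kit, read length or alignment options. Groups came from the labels. Genes kept by filterByExpr were fitted with edgeR 4.0.16 in R 4.3.3 (TMM scaling, quasi-likelihood test, 1 design of 4 group means, 12 libraries). The biological coefficient of variation was 0.126. The threshold for a call was 0.05 on the adjusted p (Benjamini-Hochberg). Values are log2 fold change ± standard error, the size of the log2 fold change over the square root of F. Pooled ratios use counts summed over 3 libraries and TMM-scaled totals. A group without counts was set to a floor of 3 counts over the group, which like the intervals covers counting error only. The floor of 3 counts was 0.107 to 0.177 CPM per library. The fit was also run on counts simulated from its own model with planted changes. That model holds no outlying library, so nothing is read from it about the calls here. Results were recomputed with DESeq2 1.42.0, with RLE or upper-quartile factors, with no filter or 1 CPM in 3 libraries, with the replicate block, and without each library. The 10 genes, the 11 related lists and the alternatives were chosen with earlier results of these data known. Named genes were the 10 genes, listed genes called in at least 1 comparison or shown for their counts beside them, and the 10 nearest by likeness. Genes named for low counts, such as ABI3 and SESA5, and genes with no call, such as OLEO4 and MLS, were chosen after their values were seen. RefSeq sequence of TAIR10.1 was used at the file's coordinates, since 97.92% of 120610 introns began with GT and ended with AG there. RefSeq carries 32835 of the 33602 gene IDs.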

Additional observations from a re-analysis of the deposited data

Results flagged for a closer look

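The ABA response differed between genotypes for 3 listed genes, by the edgeR test of the difference itself. Over all genes tested, 5.21% were called for this difference, so nothing is read from the number of listed genes called. RD20 responded less in cdk8 (difference −1.76 log2, adjusted p = 0.012). CLO4 responded more in cdk8 (0.71 log2, adjusted p = 0.0132), and so did the leaf marker CAB2, which fell by 1.55 on the log2 scale with ABA in cdk8 and by 2.80 in WT (difference 1.25 log2, adjusted p = 0.00106).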

How the results depend on the processing

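The file headers number the libraries r1 to r3, but same-numbered libraries did not deviate together: their correlations ran from −0.294 to 0.157, with 2 of 18 over 0.1. The labels do not say whether the numbers mark pairs, and these correlations cannot settle it. The replicate block was therefore run only as an alternative. With the replicate block 650 genes differed in ABA response instead of 1103, and 3 of the 10 genes were called with ABA in cdk8 instead of 5. Over all genes, 12492 of 21151 were called with ABA in cdk8 under the block. DESeq2 called 1723 genes for the difference in response, 3 of the 10 with ABA in cdk8 and 1 between genotypes after mock. Of 21151 genes it called 12787 with ABA in cdk8 and 3264 after mock. With no filter on low counts 10 of the 10 were called under ABA between genotypes, 1 after mock and 1 with ABA in WT. Of all 26129 genes, 4778, 2718 and 13765 were called in these comparisons. A filter at 1 CPM in 3 libraries left 3 under ABA and 3 with ABA in cdk8, beside 4953 and 12575 of 20241 genes. With each library left out, genes called ran from 12674 to 13977 for ABA in WT, 11828 to 13399 for ABA in cdk8, 1486 to 3432 after mock, 3099 to 5284 under ABA, and 540 to 1493 for the difference. Called genes of the related lists ran from 33 to 38, 35 to 40, 3 to 10, 15 to 25 and 2 to 4 in the same order, and called genes among the 10 from 0 to 1, 1 to 8, 0 to 1, 5 to 10 and 0 to 2. The summed share ran from 23.9 to 59.2 per 1000000 fragments in cdk8 ABA, 4.83 to 9.90 in cdk8 mock, 0.287 to 2.04 in WT ABA and 1.23 to 7.55 in WT mock. The summed ratio ran from 2.88 to 8.44 for ABA in cdk8, 0.061 to 1.16 for ABA in WT, 15.8 to 133 under ABA and 0.960 to 6.35 after mock. Over all alternatives, comparisons and listed genes, 147 calls were lost and 39 gained, and 2 directions were reversed: M17 with ABA in cdk8 at −1.78 without cdk8 ABA replicate 1 (range −1.78 to 0.55 with each library left out), and deltaVPE with ABA in cdk8 at −1.28 without cdk8 ABA replicate 3 (range −1.28 to 0.93). Neither was called with all libraries. The results on the 10 genes, the ratios and the block were recomputed by choice after seeing the data. The 10 genes were chosen with their levels known, so nothing is read from their calls. Causes were not tested beyond what leaving out a library shows.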

Other observations

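Among listed genes that did not pass the filter, 3 are named here, chosen after their values were seen, with most of their counts in cdk8 ABA replicate 1. CLO2 (AT5G55240), a seed caleosin gene, had 31, 2 and 4 counts in cdk8 ABA, 0, 1 and 0 in cdk8 mock, 2, 0 and 0 in WT ABA, and 0 in WT mock. AGL67 (AT1G77950), a MADS-box gene, had 14, 0 and 0 counts in cdk8 ABA, 0 in cdk8 mock, 0, 2 and 0 in WT ABA, and 1, 0 and 1 in WT mock, and overlaps a gene on the other strand by 75 bases. ECP31 (AT3G22500), a seed LEA gene, had 6, 0 and 0 counts in cdk8 ABA and 0 in all other groups.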
